A study of Mus musculus with 8 samples.

Results

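Gbx2, Shox2, Olig3, Lhx9 and Tcf7l2 encode transcription factors used as regulators or markers of the developing thalamus, and their levels were followed in hypothalamic RNA of Foxd1-mutant mouse embryos and of wild-type embryos. The 5 genes were found by their symbol, with rows of the same symbol summed, among 22725 symbols present in the tables of both E12 and E17.5. Foxd1 encodes a forkhead transcription factor of the developing forebrain. RNA was sequenced at the embryonic stages E12.0, E12.5 and E17.5, and there were 8 libraries, 4 of Foxd1-mutant and 4 of wild-type tissue. Each library was made from pooled RNA. The groups were Foxd1-mutant tissue at E12.0 and at E12.5 with 1 library each and at E17.5 with 2 libraries, and wild-type tissue at E12.0 and at E12.5 with 1 library each and at E17.5 with 2 libraries. The 8 mutant embryos collected in all were described as null for Foxd1, whereas the wording on the 10 control embryos leaves their genotype unclear, so the source names decided which libraries were called mutant. The labels say that tissue was collected at E12.5 and E17.5 and do not describe E12.0 beyond naming it as a stage. The strain, the Foxd1 allele, the embryos per pool and the borders of the dissection are not given in the sources used here.

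In the embryonic forebrain the thalamus lies behind the prethalamus, which adjoins the hypothalamus, and a dissection of one of them can include a rim of the next. Olig3 is a basic helix-loop-helix factor of thalamic progenitors, and Gbx2 is a homeobox factor of their early postmitotic neurons, required for the guidance of thalamic axons. Shox2 is a homeobox factor active in caudal parts of the thalamus. Lhx9 is a LIM homeodomain factor of early thalamic neurons that also marks some hypothalamic neurons. Tcf7l2 is a nuclear partner of beta-catenin in Wnt signalling, strongly active in the thalamus, the habenula and the pretectum. None of the 5 genes is a defining marker of the prethalamus, for which the Dlx genes and Pax6 are used, so the prethalamus was examined through a separate list. Levels are given as FPKM, the fragments per kilobase of transcript, scaled for the mapped fragments of the library, as the authors deposited them.

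Foxd1 itself had 2.77 FPKM in the mutant and 24.95 FPKM in the wild-type library at E12.0. At E12.5 it had 2.50 FPKM in the mutant and 30.3 FPKM in the wild-type library. At E17.5 it had 0.396 and 0.230 FPKM in the mutant libraries, against 3.90 and 1.96 FPKM in the wild-type libraries. Foxd1 was thus lower in every mutant library, and none was at 0. All 12 genes of a list of hypothalamic markers, including Nkx2-1, Otp and Pomc, were listed above 0 in all 8 libraries. The libraries held between 11572 and 13219 genes at 1 FPKM or more. Depth was estimated from the steps between the lowest values, since the files hold no counts. It came to 40.8 and 30.3 M fragments in the mutant and 34.6 and 43.4 M in the wild-type libraries at E17.5. The same estimate is uncertain at E12, where it gave 16.9 M in the mutant and 4.03 M in the wild-type library at E12.0, and 12.4 M in the mutant and 56.2 M in the wild-type library at E12.5. The wild-type E12.0 library also had the most rows listed at 0, with 8843, against 6114 to 7418 in the other E12 libraries. The E12.5 comparison does not use that library.

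The upstream sequences of 4 of the genes are shown because Gbx2, Shox2 and Olig3 differed between genotypes in opposite directions at E12.0 and E12.5, and because Lhx9 alone held any of the motifs searched. They come from RefSeq on build GRCm38.p6 and run from 250 to 21 bases before the annotated start, on the strand of the gene. The Gbx2 window is chr1:89931197-89931426 on the minus strand. The Shox2 window is chr3:66981792-66982021 on the minus strand. The Olig3 window is chr10:19356289-19356518 on the plus strand. The Lhx9 window is chr1:138842465-138842694 on the minus strand. Capitals mark motif matches.
Gbx2: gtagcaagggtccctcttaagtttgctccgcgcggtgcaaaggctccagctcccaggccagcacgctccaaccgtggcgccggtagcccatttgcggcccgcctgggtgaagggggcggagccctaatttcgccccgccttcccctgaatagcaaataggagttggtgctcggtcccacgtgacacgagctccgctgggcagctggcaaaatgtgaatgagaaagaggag
Shox2: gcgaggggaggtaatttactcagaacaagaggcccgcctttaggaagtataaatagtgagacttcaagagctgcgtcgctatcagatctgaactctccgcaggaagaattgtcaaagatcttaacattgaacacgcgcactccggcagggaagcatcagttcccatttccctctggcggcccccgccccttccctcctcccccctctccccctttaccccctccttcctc
Olig3: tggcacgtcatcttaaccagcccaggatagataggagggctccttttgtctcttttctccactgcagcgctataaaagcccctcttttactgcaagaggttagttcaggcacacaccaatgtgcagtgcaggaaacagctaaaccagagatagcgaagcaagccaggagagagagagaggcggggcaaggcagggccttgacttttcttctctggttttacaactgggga
Lhx9: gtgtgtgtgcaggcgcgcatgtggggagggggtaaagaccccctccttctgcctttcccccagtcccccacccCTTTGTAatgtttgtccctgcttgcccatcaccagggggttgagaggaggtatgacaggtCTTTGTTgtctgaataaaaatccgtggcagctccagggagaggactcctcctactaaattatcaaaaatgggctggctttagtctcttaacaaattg
Both strands were searched for a forkhead core (GTAAACA), a homeodomain core (TAATTA), the TCF/LEF core CTTTGAA with its variants ending in AT (CTTTGAT), in TA (CTTTGTA) and in TT (CTTTGTT), and an E-box (CATATG), and no matches overlapped. The Lhx9 window held CTTTGTA, with its first base 177 bases before the start, and CTTTGTT, 117 bases before the start, both on the strand of the gene. The windows of Gbx2, Shox2 and Olig3 and both windows of Tcf7l2 held no match. Among 32851 RefSeq windows of the same length, 2.91% held GTAAACA, 4.67% held TAATTA and 3.31% held CATATG. The TCF/LEF cores were each in 3% to 4.64% of windows, and 13.9% held at least 1 of the 4. These letters describe the windows and say nothing of binding.

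At E12.5 all 5 genes were lower in the mutant library, as were 48.7% of genes, while 51.3% were higher. Gbx2 had 0.630 FPKM in the mutant and 8.20 FPKM in the wild-type library, 13.0-fold higher in wild-type. Shox2 had 0.597 FPKM in the mutant and 6.04 FPKM in the wild-type library, 10.1-fold higher in wild-type. These homeobox genes of postmitotic thalamic cells showed the widest differences of the 5. Tcf7l2, the Wnt effector, had 4.90 FPKM in the mutant and 19.6 FPKM in the wild-type library, 3.99-fold higher in wild-type. Lhx9 had 3.37 FPKM in the mutant and 9.99 FPKM in the wild-type library. Olig3, the progenitor factor, had 2.80 FPKM in the mutant and 7.74 FPKM in the wild-type library. The last 2 genes were 2.96-fold and 2.76-fold higher in wild-type. The 5 genes summed to 12.3 FPKM in the mutant and 51.5 FPKM in the wild-type library. In bulk tissue, fewer cells that express a gene and less RNA per cell cannot be told apart.

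On the log2(FPKM + 1) scale, which understates the change of low genes, the E12.5 differences were -2.50 for Gbx2, -2.14 for Shox2, -1.80 for Tcf7l2, -1.33 for Lhx9 and -1.20 for Olig3. All 5 were lower by more than 2-fold on this scale, which 0.543% of 12151 genes were. None was higher by more than 2-fold, which 0.173% of genes were, or 0.0747% with small RNA genes set aside. With 1 library per genotype there is no replicate check and no test at this stage. With small RNA genes set aside, 13 of 12043 genes (0.108%) were lower by more than 2-fold, and 5 of these were the genes described here. Foxd1 held the lowest value in that ranking, Gbx2, Shox2 and Tcf7l2 held ranks 2, 3 and 4, Lhx9 held rank 6 and Olig3 rank 9. The 5 genes were chosen with earlier results of these data known, so this count and these ranks only describe them. The median difference over the 5 genes was -1.80, against 0.00 over all genes compared.

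At E12.0 the same genes did not stand the same way. Shox2 had 4.66 FPKM in the mutant and 0.466 FPKM in the wild-type library, 9.99-fold higher in the mutant. Gbx2 had 2.48 FPKM in the mutant and 0.954 FPKM in the wild-type library, 2.59-fold higher in the mutant. Olig3 had 9.12 FPKM in the mutant and 4.29 FPKM in the wild-type library, 2.12-fold higher in the mutant. Lhx9 was close between the libraries, with 9.35 FPKM in the mutant and 8.42 FPKM in the wild-type. Tcf7l2 was lower in the mutant, with 14.9 FPKM there and 17.6 FPKM in the wild-type library. In all, 4 of the 5 were higher and 1 lower, against 52.3% and 47.7% of genes. Their sum was 40.5 FPKM in the mutant and 31.7 FPKM in the wild-type library.

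The E12.0 differences in log2(FPKM + 1) were 1.95 for Shox2, 0.93 for Olig3, 0.83 for Gbx2, 0.14 for Lhx9 and -0.23 for Tcf7l2. Shox2 alone was higher by more than 2-fold on this scale, which 0.671% of 11630 genes were. Without small RNA genes the share was 0.415% (48 of 11564 genes), and 11 such genes had a larger value than Shox2. None of the 5 was lower by more than 2-fold, which 1.93% of genes were, or 1.85% without small RNA genes. The median over the 5 genes was 0.83, against 0.02 over all genes compared.

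**Figure D1:**
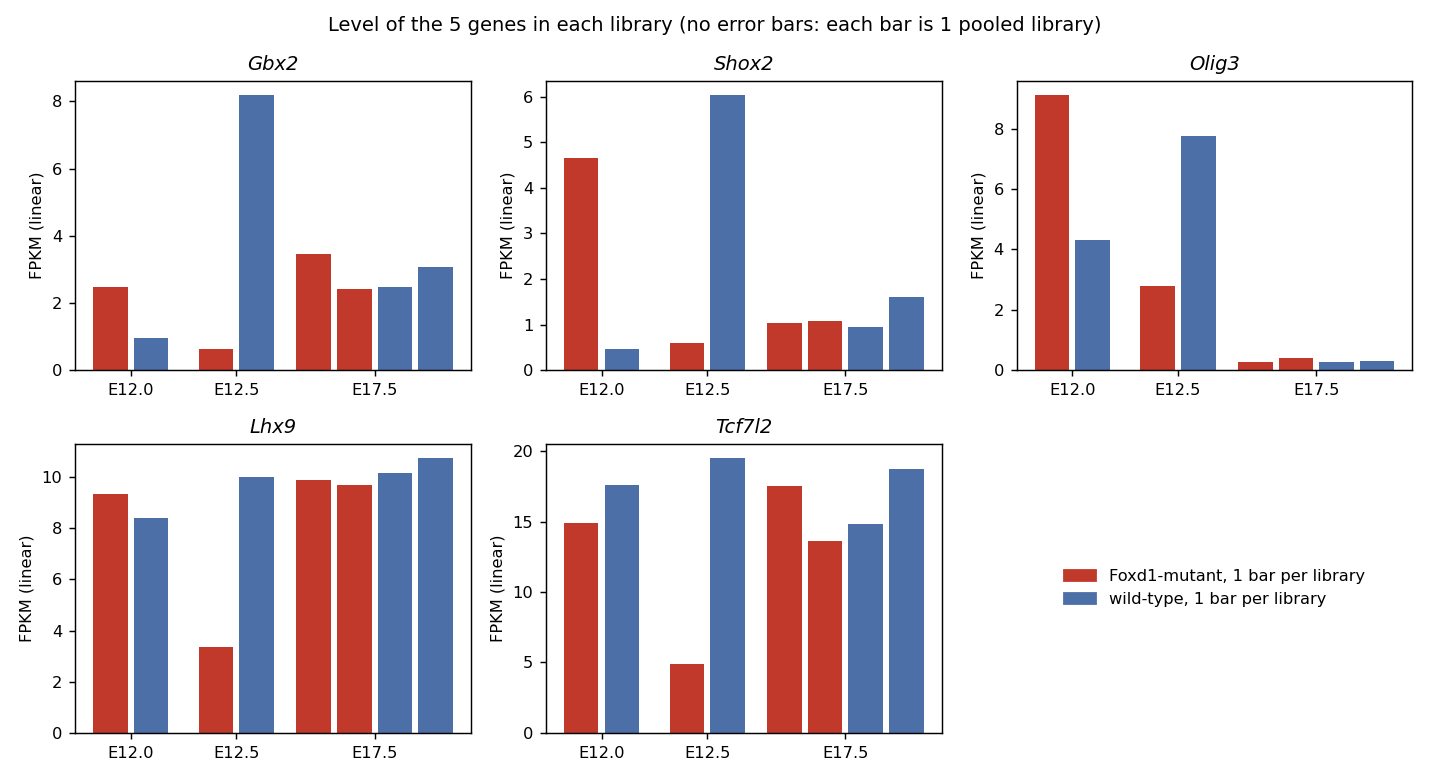
FPKM (linear axis) of Gbx2, Shox2, Olig3, Lhx9 and Tcf7l2 in each of the 8 pooled libraries, mutant left of wild-type at each stage, with 1 bar per library and no error bars. The mutant bar is the lower of the pair for all 5 genes at E12.5, while at E12.0 it is the higher of the pair for all but Tcf7l2.

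The counting error behind these values was estimated from the fragments they stand for, for the 3 genes whose E12 difference changed sign most. Gbx2 stood on about 82 fragments in the mutant and 8 in the wild-type library at E12.0, with exact Poisson 95% intervals of 1.97 to 3.07 FPKM in the mutant and 0.412 to 1.88 FPKM in the wild-type. At E12.5 it stood on about 15 fragments in the mutant and 905 in the wild-type library, with intervals of 0.352 to 1.04 FPKM in the mutant and 7.67 to 8.75 FPKM in the wild-type. Shox2 stood on about 229 fragments in the mutant and 5 in the wild-type library at E12.0, and on 22 in the mutant and 988 in the wild-type library at E12.5. Its intervals were 4.08 to 5.31 FPKM in the mutant and 0.151 to 1.09 FPKM in the wild-type library at E12.0. At E12.5 they were 0.374 to 0.903 FPKM in the mutant and 5.67 to 6.43 FPKM in the wild-type library. Olig3 stood on about 293 fragments in the mutant and 33 in the wild-type library at E12.0, with intervals of 8.10 to 10.2 FPKM in the mutant and 2.96 to 6.03 FPKM in the wild-type. At E12.5 its intervals were 2.17 to 3.56 FPKM in the mutant and 7.22 to 8.29 FPKM in the wild-type library. For all 3 genes the intervals of the genotypes did not overlap at E12.0 or at E12.5. At each early stage the library with the higher estimated depth also had the higher level of these genes, and the part of depth in the differences was not tested. The intervals cover counting error only, not the spread between pools of embryos, and they rest on the depth estimate that is uncertain at E12.

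**Figure D2:**
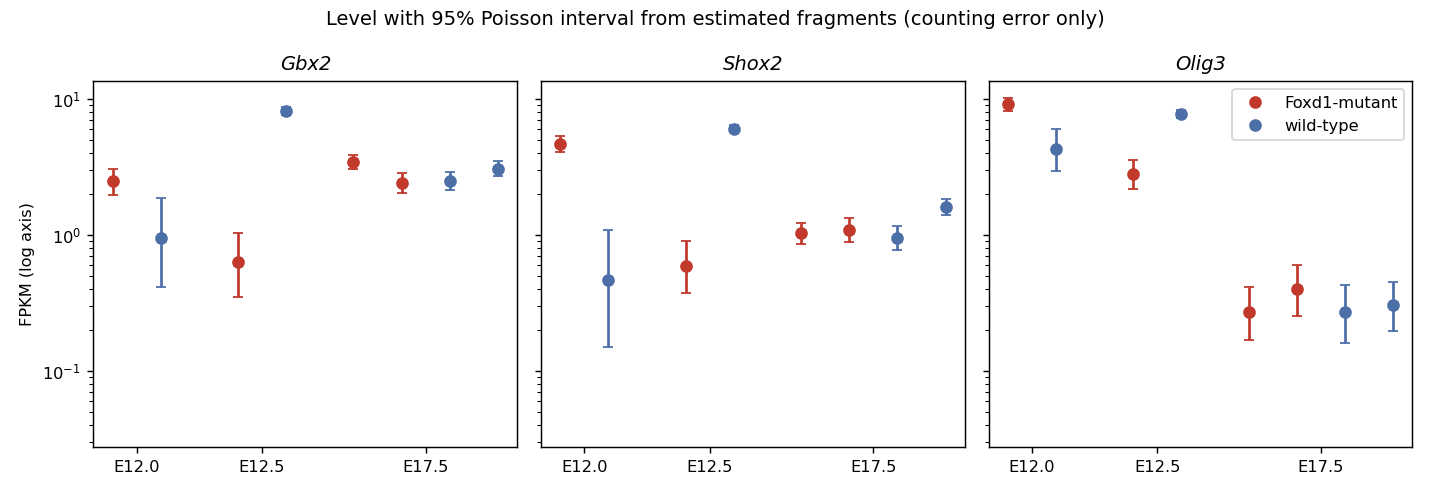
FPKM (log axis) of Gbx2, Shox2 and Olig3 in each library, mutant left of wild-type at each stage, with points for the values and bars for the 95% Poisson interval from the estimated fragments. At E12.0 and at E12.5 the bars of mutant and wild-type stand apart for each gene, with the mutant higher at E12.0 and lower at E12.5.

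Taken in one stage after the other, 4 of the 5 genes (Gbx2, Shox2, Olig3 and Lhx9) were higher in the mutant at E12.0 and lower in the mutant at E12.5. Of 11952 genes compared at both stages, 26.4% had that order of signs, so the signs alone are common. More than 2-fold higher at E12.0 and more than 2-fold lower at E12.5 were 10 genes (0.0837%), of which 8 were small RNA genes and the others were Shox2 and Slc7a11. Tcf7l2 was lower in the mutant at both stages, as were 21.8% of genes. Among the 4 E12 libraries the wild-type E12.5 library had the highest level of Gbx2, Shox2, Lhx9 and Tcf7l2, and the mutant E12.0 library had the highest level of Olig3. The lowest E12 level of Gbx2, Olig3, Lhx9 and Tcf7l2 was in the mutant E12.5 library, and that of Shox2 was in the wild-type E12.0 library. From the highest to the lowest E12 library the range was 13.0-fold for Gbx2, 13.0-fold for Shox2, 3.99-fold for Tcf7l2, 3.25-fold for Olig3 and 2.96-fold for Lhx9.

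**Figure D3:**
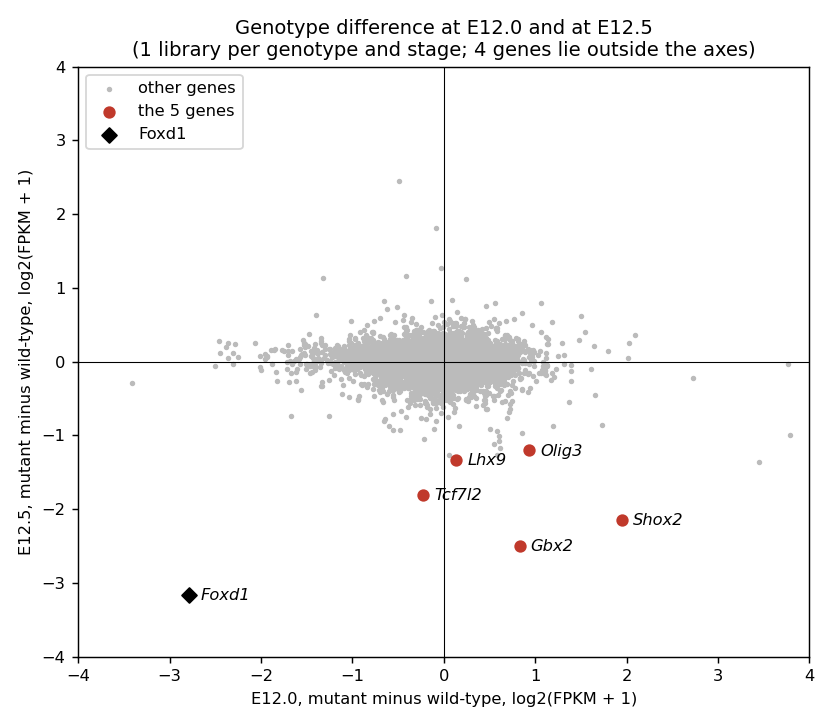
Genotype difference in log2(FPKM + 1), mutant minus wild-type, at E12.0 (horizontal axis) and at E12.5 (vertical axis), with 1 point per gene and the 5 genes and Foxd1 named. Shox2, Gbx2 and Olig3 lie to the lower right, Tcf7l2 lies at the lower left, Lhx9 lies near 0 on the horizontal axis, and 4 genes lie outside the axes.

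The E12 libraries were tested together with limma on log2(FPKM + 1), with stage as a block, so that p measures the disagreement of the stages about the genotype difference. Among 11952 genes, 0 of the 5 passed an adjusted p of 0.05, and 0.0167% of genes passed it in each direction. The mean difference was -1.01 for Tcf7l2 (SE 0.376, limma adjusted p = 0.976), which was lower in the mutant at both stages. At an unadjusted p under 0.05, 1 of the 5, Tcf7l2, with an unadjusted limma value of 0.0436, was lower, as were 0.803% of genes, and 0.602% of genes were higher. The difference was -0.83 for Gbx2 (SE 0.767, limma adjusted p = 0.976) and -0.60 for Lhx9 (SE 0.357, limma adjusted p = 0.976). It was -0.13 for Olig3 (SE 0.501) and -0.10 for Shox2 (SE 0.935), with limma adjusted p of 0.988 and 0.995. Foxd1 passed in the same fit, with -2.97 (limma adjusted p = 0.0305). With 1 E12 library left out, the difference was that of the complete stage, 1 library against 1, and the residual spread came only from the E17.5 libraries. Leaving out either library of a stage therefore gave the same difference, and no p-value is given for these fits. Without an E12.0 library the difference was -2.50 for Gbx2, -2.14 for Shox2, -1.80 for Tcf7l2, -1.33 for Lhx9 and -1.20 for Olig3. Without an E12.5 library it was 1.95 for Shox2, 0.93 for Olig3, 0.83 for Gbx2, 0.14 for Lhx9 and -0.23 for Tcf7l2.

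At E17.5 the levels of the 5 genes lay close together in the genotypes. Tcf7l2 had 17.54 and 13.6 FPKM in the mutant libraries, against 14.8 and 18.7 FPKM in the wild-type libraries, a mean of 15.6 ± 2.77 in the mutant and 16.8 ± 2.75 in wild-type (SD, n = 2 each). Lhx9 had 9.89 and 9.68 FPKM in the mutant libraries, against 10.2 and 10.8 FPKM in the wild-type libraries, a mean of 9.79 ± 0.146 in the mutant and 10.5 ± 0.432 in wild-type (SD, n = 2 each). Lhx9 was the only 1 of the 5 whose genotypes did not overlap, and 22.2% of 13235 genes had both mutant libraries below both wild-type libraries. Gbx2 had 3.46 and 2.43 FPKM in the mutant libraries, against 2.49 and 3.08 FPKM in the wild-type libraries. Shox2 had 1.04 and 1.09 FPKM in the mutant libraries, against 0.952 and 1.61 FPKM in the wild-type libraries. Olig3 was low in both genotypes, with 0.272 and 0.400 FPKM in the mutant libraries, against 0.273 and 0.304 FPKM in the wild-type libraries. It stood on about 21 and 23 fragments in the mutant and 18 and 25 in the wild-type libraries. The authors made the tables of E12 and of E17.5 apart from each other, so levels of different stages are set side by side only.

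Of the 5 genes, 4 passed the filter of a mean of 1 FPKM at E17.5 and were tested among 13235 genes, and 0 of the 4 passed an adjusted p of 0.05, which 0% of genes passed as higher and 0.00756% as lower. At an unadjusted p under 0.05, 0 of the 4 passed, against 2.18% of genes as higher and 3.52% as lower. The difference was 0.05 for Gbx2 (SE 0.153), -0.13 for Shox2 (SE 0.156), -0.09 for Lhx9 (SE 0.0616) and -0.10 for Tcf7l2 (SE 0.149). The limma adjusted p-values were 0.914 for Gbx2, 0.783 for Shox2, 0.697 for Lhx9 and 0.814 for Tcf7l2. Without a filter, Olig3 had a difference of 0.05 (limma adjusted p = 0.93). With 1 library left out, Gbx2 ranged from -0.14 to 0.24, Tcf7l2 from -0.27 to 0.07 and Shox2 from -0.34 to 0.08, so their direction at E17.5 rested on single libraries. The sources used here do not say whether the pools came from separate litters, so these p-values reflect a spread that may be technical.

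Over all 3 stages, in a limma fit of 8 libraries and 12519 genes with stage as a block, 0 of the 5 passed, at a background of 0% in each direction, and 0 of the 5 reached an unadjusted p under 0.05, which 2.44% of genes reached as higher and 3.11% as lower. The mean difference was -0.56 for Tcf7l2 (SE 0.292, limma adjusted p = 0.749), -0.39 for Gbx2 (SE 0.492) and -0.34 for Lhx9 (SE 0.226). It was -0.11 for Shox2 (SE 0.562) and -0.04 for Olig3 (SE 0.298). The late genotype difference minus the early one was tested in the same libraries. It was 0.91 for Tcf7l2 (limma adjusted p = 0.749), 0.88 for Gbx2 (limma adjusted p = 0.789), 0.51 for Lhx9 (limma adjusted p = 0.749), 0.18 for Olig3 and -0.03 for Shox2. In that test 0 of the 5 passed an adjusted p of 0.05, and 0.00799% of genes passed as higher and 0.024% as lower. At an unadjusted p under 0.05, 0 of the 5 passed there, against 1.74% of genes as higher and 2.2% as lower.

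FPKM is a scale per length, so the levels of the genes can be set side by side. Tcf7l2 was the highest and Lhx9 the next in all 8 libraries, while the order of the others varied. In the mutant E12.0 library it was Olig3, Shox2 and Gbx2, and in the wild-type E12.0 library Olig3, Gbx2 and Shox2. In the mutant E12.5 library the order ran from Tcf7l2 (4.90 FPKM) over Lhx9, Olig3 and Gbx2 to Shox2 (0.597 FPKM), where the counting intervals of Gbx2 and Shox2 overlap. In the wild-type E12.5 library it ran from Tcf7l2 (19.6 FPKM) over Lhx9, Gbx2 and Olig3 to Shox2 (6.04 FPKM), where the counting intervals of Gbx2 and Olig3 overlap. At E17.5 it was Tcf7l2, Lhx9, Gbx2, Shox2 and Olig3 in all 4 libraries.

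Rows of single RefSeq transcripts were deposited for E17.5. Lhx9 was split over 3 rows, of which NM_010714 held 69.2% and 70.5% of its FPKM in the mutant libraries, against 58.5% and 62.7% in the wild-type libraries. NM_001042577 held 27.2% and 29.5% in the mutant libraries, against 36.5% and 30.0% in the wild-type libraries. The shares of these rows did not overlap between genotypes, on 2 libraries each and with no test, and the second row was apart only by 29.5% against 30.0%. A larger share of one row lowers the other, so they are not separate observations. Of whole genes at E17.5, 20.9% had both mutant libraries above both wild-type libraries and 22.2% had both below. No such percentage was computed over transcript rows. The third row, NM_001025565, was low, with 0.360 and 0.00106 FPKM in the mutant and 0.510 and 0.788 FPKM in the wild-type libraries. Tcf7l2 was split over 8 rows, and NM_001142924 held the largest share, with 65.7% and 71.1% in the mutant libraries, against 64.0% and 66.6% in the wild-type libraries, which overlapped. Rows of transcripts that share exons are estimates, since most reads fit several of them.

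**Figure D4:**
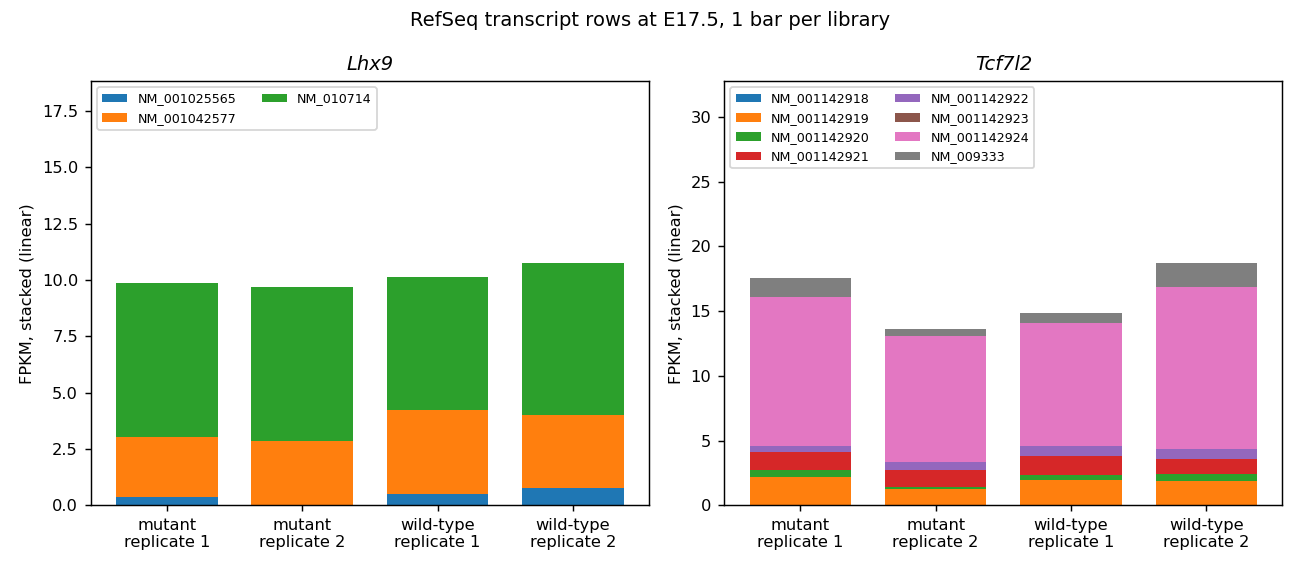
FPKM (linear axis) of the RefSeq transcript rows of Lhx9 and Tcf7l2 at E17.5, stacked in 1 bar per library, mutant libraries left of wild-type. NM_010714 makes up the largest part of each Lhx9 bar and NM_001142924 the largest part of each Tcf7l2 bar.

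In the annotation of build GRCm38, an antisense gene, D130058E05Rik, covers 946 of the 2177 exon bases of Gbx2, and it is not listed in the authors' tables. Rsrc1 covers 153 of the 3311 exon bases of Shox2 from the other strand. Whether the libraries kept the strand is not stated, so reads of Gbx2 or Shox2 and of their antisense partners cannot be told apart in the overlaps. Rsrc1 differed little between genotypes, with 13.5 FPKM in the mutant and 14.4 FPKM in the wild-type library at E12.0, and 16.1 FPKM in the mutant and 16.4 FPKM in the wild-type library at E12.5. No exon of another gene overlapped Olig3, Lhx9 or Tcf7l2.

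The border of the dissection was examined through lists of markers of the tissues around the hypothalamus. Of 13 other thalamic genes compared at E12.5, 10 were lower and 3 higher in the mutant, with a median of -0.13, and 0 were past 2-fold. Calb2, a calcium-binding protein of thalamic and other neurons, had 6.82 FPKM in the mutant and 13.3 FPKM in the wild-type library. Ntng1, a thalamic axon protein, had 3.50 FPKM in the mutant and 5.52 FPKM in the wild-type library. Lhx2, a LIM homeodomain relative of Lhx9, had 24.3 FPKM in the mutant and 28.9 FPKM in the wild-type library, and Olig2, a relative of Olig3, had 24.9 FPKM in the mutant and 25.4 FPKM in the wild-type library. At E12.0 the median of this list was -0.08, with 5 of 12 higher and 7 of 12 lower. Prox1 was past 2-fold there, at -1.20, with 7.44 FPKM in the mutant and 18.4 FPKM in the wild-type library.

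Markers of the rostral thalamus, a domain of inhibitory neurons in front of the territory that Gbx2 marks, were lower in 5 of 6 at E12.5 (median -0.48). Helt had 1.23 FPKM in the mutant and 3.08 FPKM in the wild-type library, and Tal1 had 1.43 FPKM in the mutant and 2.91 FPKM in the wild-type library. At E12.0 the median was -0.49, so this list, unlike Gbx2 and Shox2, had the same sign at both stages. The zona limitans is the signalling border between thalamus and prethalamus. The list of its markers had the opposite sign to Gbx2, Shox2, Olig3 and Lhx9 at both stages, while Tcf7l2 shared the list's sign at E12.0. The 4 markers were all lower at E12.0 (median -0.30) and all higher at E12.5 (median 0.43). There Shh had 37.0 FPKM in the mutant and 27.1 FPKM in the wild-type library, and Sim2 had 10.8 FPKM in the mutant and 6.62 FPKM in the wild-type library. That order of signs was found in 25.4% of genes, and the medians of the hypothalamic list had it too (-0.26 at E12.0 and 0.20 at E12.5). Which tissue the RNA of these markers came from was not tested. Prethalamic genes were lower in 13 of 14 at E12.0 (median -0.32), led by Dlx5 with 14.3 FPKM in the mutant and 33.3 FPKM in the wild-type library. At E12.5 they were lower in 10 of 14 (median -0.17), none by more than 2-fold, with Pax6 at 23.7 FPKM in the mutant and 35.3 FPKM in the wild-type library. At E17.5 the median was -0.28 for the rostral thalamus and -0.02 for the prethalamus.

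The pretectum and midbrain list, from the tissue behind the thalamus, had the signs of Gbx2, Shox2, Olig3 and Lhx9 at both early stages. Its 7 genes summed to 8.22 FPKM in the mutant and 5.03 FPKM in the wild-type library at E12.0, and to 4.55 FPKM in the mutant and 9.42 FPKM in the wild-type library at E12.5. Tal2, a factor of midbrain and pretectal neurons, had the highest level in the list, with 5.62 FPKM in the mutant and 3.43 FPKM in the wild-type library at E12.0. At E12.5 Tal2 had 1.86 FPKM in the mutant and 5.90 FPKM in the wild-type library. The midbrain genes En1, En2, Pax3 and Dmbx1 were at or near 0 in all E12 libraries, at 0.189 FPKM or less. Pax7 did not follow Tal2, with 1.15 FPKM in the mutant and 1.05 FPKM in the wild-type library at E12.5. The habenula list, from the dorsal neighbour of the thalamus, had medians of -0.19 at E12.0 and -0.11 at E12.5. Dorsal midline genes had medians of 0.18 in the E12.0 pair and 0.46 in the E12.5 pair, and eye genes summed to 2.92 FPKM or less in every library. The part of neighbouring tissue in the differences of the 5 genes was not tested.

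A list of 10 telencephalic genes summed to 41.4 FPKM in the mutant and 60.6 FPKM in the wild-type library at E12.0, and to 42.2 FPKM in the mutant and 35.0 FPKM in the wild-type library at E12.5. At E17.5 they summed to 56.3 and 111 FPKM in the mutant libraries, against 46.6 and 47.4 FPKM in the wild-type libraries, so mutant replicate 2 stood apart. All 10 had a higher mutant mean there (median 0.64), with 0 past the adjusted threshold, but Emx1, Neurod2 and Bcl11b were below both wild-type libraries in mutant replicate 1. The 4 tested of the 5 genes had a median of -0.09. The hypothalamic list was lower in 10 of 12 at E12.0 (median -0.26) and higher in 8 of 12 at E12.5 (median 0.20). Nkx2-1 had 13.1 FPKM in the mutant and 39.8 FPKM in the wild-type library at E12.0. At E12.5 it had 30.0 FPKM in the mutant and 24.2 FPKM in the wild-type library. Among the E12 libraries, the wild-type E12.0 library thus held the highest Nkx2-1 level, as it did for Prox1, Dlx5, Lef1 and Tcf7l1. The E12.0 differences of these genes rest on that single wild-type library. With 1 library per genotype at each early stage, genotype and the border of the dissection cannot be told apart.

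**Figure D5:**
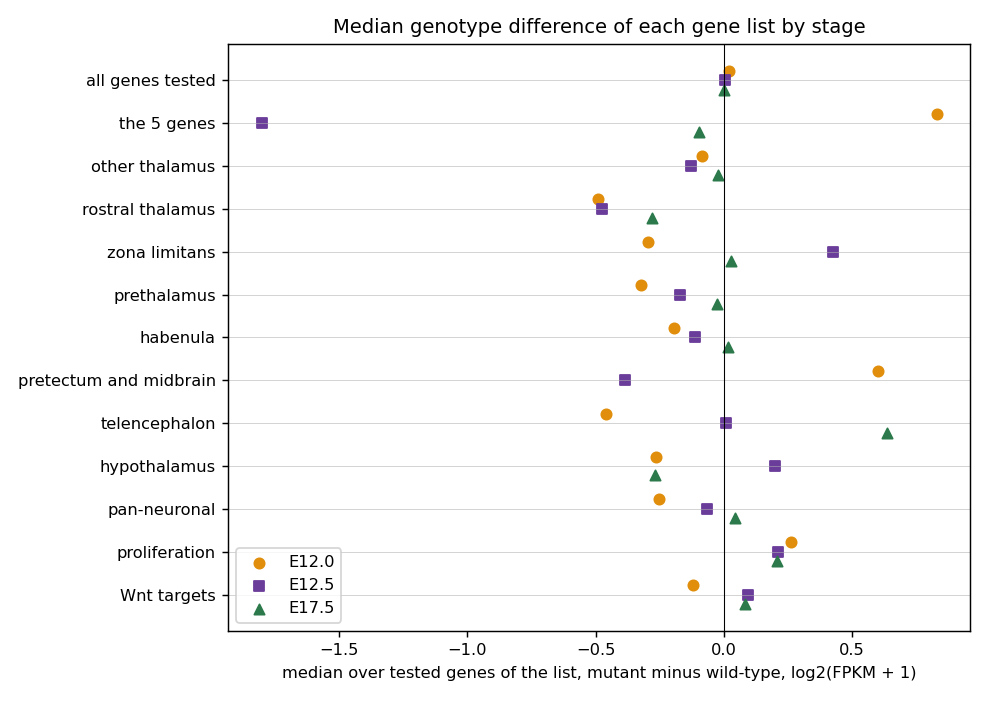
Median over the tested genes of each list of the genotype difference in log2(FPKM + 1), mutant minus wild-type (horizontal axis), with 1 row per list and 1 marker per stage. The 5 genes reach 0.83 at E12.0 and -1.80 at E12.5, while at E12.5 the other lists drawn lie between -0.48 and 0.43.

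Proliferation genes had medians of 0.26 in the E12.0 pair and 0.21 in the E12.5 pair, neuronal genes of -0.25 and -0.07, oligodendrocyte lineage genes of -0.07 and -0.01, meningeal genes of -0.26 and -0.02, and pituitary genes of 0.09 and 0.03. The E12.5 difference of the 5 genes was also set against how much hypothalamic or neuronal RNA the libraries held. Per 100 FPKM of the summed hypothalamic list, the wild-type level exceeded the mutant level 14.0-fold for Gbx2, 10.9-fold for Shox2, 4.28-fold for Tcf7l2, 3.17-fold for Lhx9 and 2.96-fold for Olig3. Per 100 FPKM of the summed neuronal list, it did so 11.9-fold for Gbx2, 9.27-fold for Shox2, 3.66-fold for Tcf7l2, 2.71-fold for Lhx9 and 2.53-fold for Olig3. At E12.0 the mutant level per hypothalamic list exceeded the wild-type level 15.0-fold for Shox2, 3.90-fold for Gbx2, 3.19-fold for Olig3, 1.67-fold for Lhx9 and 1.27-fold for Tcf7l2. Per neuronal list Tcf7l2 was instead lower in the mutant at E12.0, at 0.846 of the wild-type level, so its direction there depends on the list it is set against. Wnt target genes had a median of 0.09 at E12.5, with 4 of 7 higher and 3 of 7 lower, where Tcf7l2 had -1.80, and Axin2, a general target and inhibitor of the pathway, had 8.74 FPKM in the mutant and 10.2 FPKM in the wild-type library. Of the relatives of Tcf7l2, Lef1 had 7.11 FPKM in the mutant and 12.4 FPKM in the wild-type library at E12.0, and Tcf7l1 had 1.21 FPKM in the mutant and 5.52 FPKM in the wild-type library. At E12.5 Lef1 had 9.80 FPKM in the mutant and 9.13 FPKM in the wild-type library, and Tcf7l1 had 0.961 FPKM in the mutant and 0.847 FPKM in the wild-type library.

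Likeness between genes was measured as Pearson's r of log2(FPKM + 1) over the 8 libraries, each stage centred on its own mean. These points share tables, pools and depth, and the 4 E12 libraries carry most of the spread, so the values describe these libraries. With 1 library per genotype at each early stage, the centred values of mutant and wild-type are equal and opposite there. The E12 points thus carry only the E12.0 and the E12.5 genotype difference of each gene. Between the 5 genes r ran from 0.647 for Shox2 and Tcf7l2 to 0.981 for Shox2 and Olig3. The genes most like each were then sought among 810 genes with enough spread, with the 5 genes themselves left out of the ranking. The most like Lhx9 was Ddx5, an RNA helicase, with r of 0.980, followed by Calb2 with 0.958 and Pdlim3 with 0.853. Ddx5 was also the most like Gbx2 with 0.933 and the most like Tcf7l2 with 0.931, and it had 440 FPKM in the mutant and 1055 FPKM in the wild-type library at E12.5. Gbx2 was followed by Calb2 with 0.921 and Cartpt with 0.899, and Tcf7l2 by Calb2 with 0.910 and Tal1 with 0.883. The most like Shox2 were Matk, Hist1h4j and Cgref1, with r of 0.957, 0.950 and 0.945. The most like Olig3 were Rspo1, Hist1h4j and Hs3st1, with r of 0.945, 0.941 and 0.934. Hist1h4j has near-identical copies, so its values are uncertain.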

How the data were processed

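RNA of Foxd1-mutant and wild-type embryonic mouse hypothalamus was measured in 8 libraries. Values are FPKM as deposited by the authors. TopHat, Cufflinks and build mm9 are named in the submitters' processing notes, with no versions given. The labels' protocols give paired-end reads of 100 cycles on pooled RNA. Unnamed rows (8 in the E12 tables) were left out, and rows of a symbol were summed.

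Tests used limma 3.58.1 in R 4.3.3 with a variance trend on log2(FPKM + 1), for genes averaging 1 FPKM or more, two-sided, with Benjamini-Hochberg adjustment at 0.05. The E12 and all-stage fits had stage as a block. Single early stages had no test, and 2-fold was counted. The limma steps were tested on simulated data. FPKM keep no counts, so no count model was used. Depth came from rows of 1 transcript over 2500 nt less a fragment length of 170 nt. The share of low values within 0.1 of whole fragments was 31.3% to 41.2% in the E12 libraries. In the E17.5 libraries it was 79.5% to 80.4%, so the E12 depths are the less certain.

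The 5 genes and the 17 other lists were chosen with earlier results of these data known. Named were the 5 genes, Foxd1, up to 4 genes of a list with the largest differences, and for each of the 5 genes the 3 most correlated genes (SD at least 0.2). Genes named outside this rule (Slc7a11, Emx1, Neurod2, Bcl11b, Pax7, En1, En2, Pax3, Dmbx1, Lhx2, Olig2, Rsrc1 and hypothalamic markers) were chosen after their values were seen. Some genes that the rule names are left out of the text. Alternatives changed the pseudocount, filter, normalization, small RNA genes, joining of rows, trend, spread, blocks and libraries. Other steps ran in Python 3.11.15 with pandas 2.3.3, scipy 1.17.1, numpy 2.4.6 and matplotlib 3.10.9.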

Additional observations from a re-analysis of the deposited data

Results flagged for a closer look

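The genotype difference of 4 genes had opposite signs at the early stages, with mutant above wild-type at E12.0 and below it at E12.5. The E12.5 difference minus the E12.0 difference, in log2(FPKM + 1), was -4.09 for Shox2, -3.33 for Gbx2, -2.14 for Olig3 and -1.46 for Lhx9. With 1 library per genotype and stage, the difference between the stages was not tested.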

How the results depend on the processing

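Of the 5 genes, 0 passed the adjusted threshold in any of the 4 tests, and 0 passed at E17.5 or in the fit of all stages under every alternative run. The count past 2-fold at E12.0 was 1 and became 3 with a pseudocount of 0.1 and 0 with 5, and at E12.5 it was 5 and became 2 with a pseudocount of 5. With 1 E12 library left out, the early difference rested on 1 library per genotype and on the spread of the E17.5 libraries. For the E12 fit and the difference between late and early effects, no count of passing genes is given where E12 libraries are left out.

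Over all genes, 1 passed at E17.5, 0 with no filter or a filter of 5 FPKM, and 1 to 44 with 1 library left out. At E12 4 passed, with 1 at a pseudocount of 5, after quantile normalization or with no trend, 2 without small RNA genes, 0 with no filter, 78 with no stage block, and 55 to 2595 with 1 library left out (59 without the mutant E12.0 and 2440 without the mutant E12.5 library). For the difference between late and early effects 4 passed, with 1 at a pseudocount of 0.1 or 5, 2 without small RNA genes, with the highest row or with robust spread, 0 with a filter of 5 FPKM, 48 without both E12.0 libraries, and 0 to 1465 with 1 library left out. Past 2-fold at E12.0 were 302 genes, 510 with a pseudocount of 0.1 and 137 with 5. At E12.5 there were 87, and 33 without small RNA genes. In these alternatives each library was rescaled to its former total once small RNA genes were removed. The shares given earlier with small RNA genes set aside were not rescaled, so the counts differ.

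Directions turned as follows, and the cause was not tested. At E17.5 Lhx9 was at 0.10 with the highest row of the symbol. With 1 library left out the ranges were -0.139 to 0.242 for Gbx2, -0.338 to 0.0795 for Shox2 and -0.274 to 0.0684 for Tcf7l2. At E12 they were -2.50 to 0.83 for Gbx2, -2.14 to 1.95 for Shox2, -1.20 to 0.93 for Olig3 and -1.33 to 0.14 for Lhx9. Over all stages they were -0.80 to 0.31 for Gbx2, -0.80 to 0.56 for Shox2 and -0.37 to 0.34 for Olig3. For the difference between late and early effects they were -0.78 to 2.55 for Gbx2, -2.08 to 2.01 for Shox2, -0.88 to 1.25 for Olig3 and -0.22 to 1.24 for Lhx9. There Shox2 was at 0.0308 with a pseudocount of 5 and at 2.01 without both E12.0 libraries. Every one of these E12 and all-stage turns came with an E12.5 library left out.

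With the replicate number as a block at E17.5, 16 genes passed and 0 of the 5. Replicate 1 deviations of the genotypes correlated with r of 0.028 over 13235 genes, and with 2 pairs the numbers do not pair the samples. Depth limits Gbx2 and Shox2 most in the wild-type E12.0 library, where they stand on about 8 and 5 fragments.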
